A study of Fukomys damarensis and Heterocephalus glaber and Cavia porcellus with 28 samples.

Results

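The genes described here encode the chains of the collagens and the enzymes that hydroxylate and crosslink them. They were taken by symbol: every row whose mouse symbol was a collagen alpha chain, a lysyl oxidase (Lox, Loxl1 to Loxl4), a lysyl hydroxylase (Plod1 to Plod3) or the alpha subunit of a prolyl 4-hydroxylase (P4ha1 to P4ha3). The rule matched 43 of 13928 rows. Col4a3bp matched by its name only, since it encodes a ceramide transfer protein, and was set apart, which left 42 members: 31 collagen chains and 11 enzymes. Several well known chains, among them Col1a1, Col4a2 and Col5a3, were not analysed here.

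The study compared heart and liver of 2 African mole-rats, the naked mole-rat (Heterocephalus glaber) and the Damaraland mole-rat (Fukomys damarensis), with 2 outgroups, the guinea pig (Cavia porcellus) and the mouse (Mus musculus). No animal was treated, and no mouse strain is named. Heart libraries came from 3 naked mole-rats of 13 to 17 months, 5 Damaraland mole-rats of 36 to 48 months, 3 guinea pigs of 2.3 months and 3 mice of 2 months, and liver libraries from 4, 5, 3 and 2 animals of the same ages in that order. The labels name 18 animals, of which 10 gave both tissues, and all libraries but 1 (Damaraland liver replicate 4) came from males. The mole-rats were older than the outgroups, so age and species cannot be told apart in any comparison below, and 1 Damaraland animal is labelled with different ages in its heart and its liver.

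Collagens are triple helices of alpha chains. Fibrillar collagens (types I, II, III, V, XI and XXIV) form or nucleate the cable-like fibrils of connective tissue, type IV forms the sheet of the basement membrane, type VI forms beaded microfibrils beside cells, and types XV and XVIII are proteoglycan-like collagens of the basement membrane zone. Prolyl 4-hydroxylases act in the endoplasmic reticulum and give the triple helix its stability, lysyl hydroxylases prepare lysines for sugar attachment and crosslinks, and lysyl oxidases start the crosslinks outside the cell. In the heart most fibrillar collagen is made by fibroblasts. In the healthy liver little is made, chiefly by stellate cells and portal fibroblasts, and type XVIII is unusual in that hepatocytes make it.

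Library depth ran from 4089633 reads in naked heart replicate 3 to 26985779 in a mouse heart. Levels below are scaled reads: the number of reads per gene, brought to a common library depth. Differences with standard errors (SE) are on the deposited log2-like scale, which compresses changes of rare genes, so a difference of 1 there is at least a 2-fold change. No value is corrected for gene length, which may differ between the species' gene models, and how genes were matched across species is not given in the sources used here. A difference in RNA level and a difference in how much of a gene was counted therefore cannot be told apart between species. A gene was called at a limma adjusted p under 0.05 with a difference of at least 1. In bulk tissue, fewer cells of a type and less RNA per cell cannot be told apart either. The tissue labels fitted their markers: the 6 cardiomyocyte genes summed to at least 451310 scaled reads in every heart, and the 5 hepatocyte genes to at least 878950 in every liver. Naked hearts also held 10955 to 31139 scaled reads of the hepatocyte genes, against 349 to 6902 in the other hearts. Most of the naked sum was Alb, at 8650 to 26192, and Ttr, Fgb and Cps1 were also highest in naked hearts. Apoa1 was not, at 248 to 455 in naked, 1567 to 1947 in Damaraland, 3081 to 3567 in guinea pig and 21.9 to 77.8 in mouse hearts. Damaraland heart replicate 5 stood apart from the other Damaraland hearts, with 74296 scaled reads of fibroblast markers, mostly of Gsn, against 20204 to 32294. Results that rest on it are also given without it.

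In heart, collagen made up the largest share of RNA in the guinea pig and the smallest in the mouse, with the mole-rats between them. The 31 chains summed to 0.674%, 0.781% and 1.48% of non-mitochondrial reads in the guinea pig hearts and to 0.139%, 0.142% and 0.195% in the mouse hearts. Naked hearts held 0.258%, 0.314% and 0.455%. Damaraland hearts ran from 0.167% to 0.613% with a median of 0.222%, and the highest of them was replicate 5. The guinea pig libraries did not overlap any other species, and the mouse libraries overlapped only Damaraland. The enzymes varied far less: their sum had medians of 0.0488% in naked, 0.0493% in Damaraland, 0.0497% in guinea pig and 0.0362% in mouse heart. Mitochondrial reads, left out of these shares, were 22.651% to 26.883% of naked and 22.43% to 25.586% of mouse heart reads. They were 5.423% to 17.993% in guinea pig and 0.006% to 0.028% in Damaraland hearts. With them counted, the enzyme medians were 0.037% in naked, 0.0493% in Damaraland, 0.0462% in guinea pig and 0.0273% in mouse heart. The mouse chain sums, at most 0.151%, then lay below all Damaraland sums, at least 0.167%. In liver the picture turned on the single gene Col18a1. The chains summed to a median of 0.275% in Damaraland, 0.221% in mouse, 0.169% in guinea pig and 0.127% in naked liver, but without Col18a1 the guinea pig came first at 0.107%, followed by the naked mole-rat at 0.057%, the mouse at 0.0534% and the Damaraland mole-rat at 0.0463%.

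**Figure D1:**
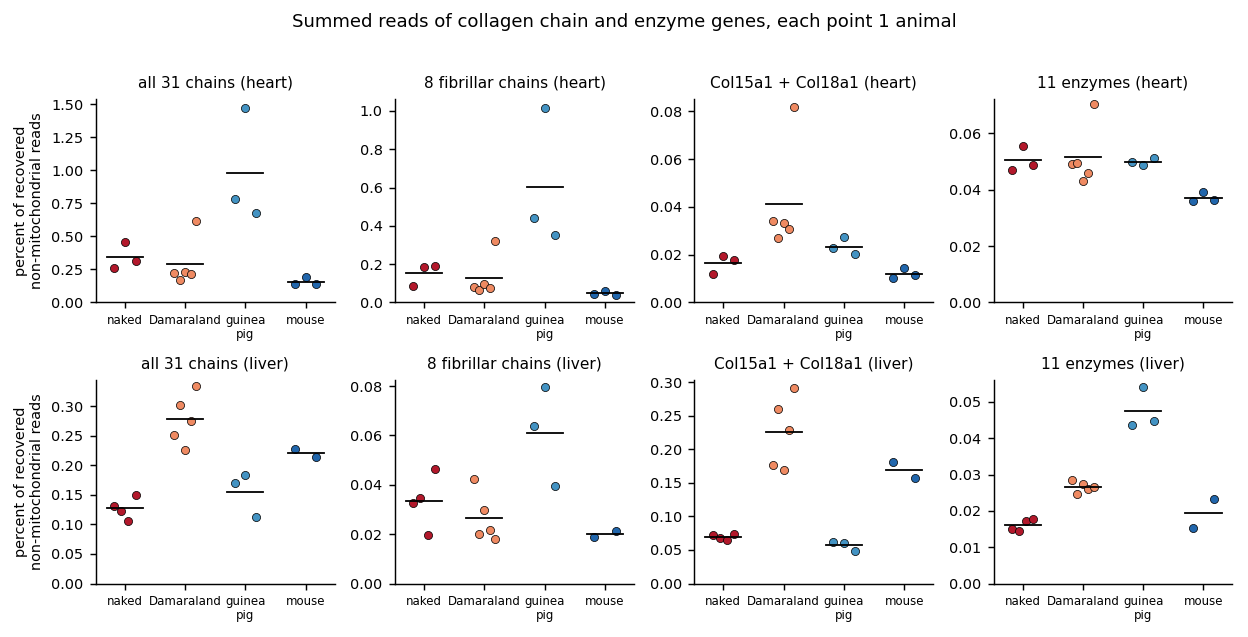
Summed reads of member genes as a percent of recovered non-mitochondrial reads (vertical axes, linear, each panel on its own scale) in heart (top) and liver (bottom), by species; points are animals and bars are means. Guinea pig hearts are highest for all chains (0.674% to 1.48%), while Damaraland livers have the highest mean for Col15a1 plus Col18a1 (0.17% to 0.292%).

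Of the 42 members, 32 passed the filter on low values in heart. In the contrast of the mole-rats against the outgroups voom called 14 of these. The share of all genes that voom called was not counted, here or below. Limma called 8 members, in a table where it called 23.4% of all genes tested. The 3 that were higher in mole-rats, against 10.8% of all genes, were Col11a1, Col12a1 and P4ha2, and the 5 that were lower, against 12.6%, were Col4a1, Col4a5, Col5a1, Loxl1 and P4ha1. The median difference of the members was 0.24, beside -0.01 for all genes. Against each outgroup separately, 3 members (Col4a5, Loxl1 and P4ha1) were lower in both mole-rats, where 2.62% of all genes were, and no member was higher in both, where 2.06% of all genes were. By limma at an unadjusted p under 0.05 and the same size the same 3 members, and no other, were found, and voom called none higher in both. Between guinea pig and mouse 19 of 32 were called, beside 32.1% of all genes. Of these, 16 were higher in the guinea pig and 3 lower, beside 15.2% and 16.9% of all genes. The median difference of the 32 members was 0.95, beside 0.01 for all genes. This contrast sets 1 species against 1, so its count is not comparable with the 8 of the species averages. At a limma adjusted p under 0.05 and any size, 23 members differed between guinea pig and mouse. At that setting naked hearts differed from guinea pig at 24 and from mouse at 21, and Damaraland hearts at 18 and 24. The share of all genes was not counted there. By mean scaled reads the mouse was the lowest of the 4 species at 21 of the 32 members, and the guinea pig the highest at 13. By mean deposited value, an unlike measure, the mouse was lowest at 28.3% of all genes and the guinea pig highest at 23.3%. For Col11a1, Col11a2, Col7a1 and Col20a1 the mean of the libraries outside a single species lay under the limit of the filter, so whether they were tested rested on that species. Without these 4, the counts were 7 of 28 between mole-rats and outgroups, 18 between guinea pig and mouse and 7 between the mole-rats.

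The fibrillar chains carried most of the guinea pig's excess. Col3a1, the type III chain of compliant tissues, reached 32827, 84917 and 28856 scaled reads in guinea pig hearts, and 3298, 4590 and 2889 in mouse hearts. It reached 5634, 13809 and 11728 in naked hearts and 4396, 3990, 5537, 4074 and 22107 in Damaraland hearts. All guinea pig hearts lay above all others, and the closest was Damaraland replicate 5. The guinea pig mean was 13.6-fold that of the mouse (difference 3.58 ± 0.55 SE, limma adjusted p = 3.05e-05), 4.7-fold that of the naked and 6.09-fold that of the Damaraland mole-rat. Col1a2, the second chain of type I collagen, was likewise highest in guinea pig and lowest in mouse, at 9652, 22873 and 8246 scaled reads in guinea pig, against 1468, 2368 and 1659 in mouse (2.71 ± 0.51 SE, limma adjusted p = 0.00024). Mole-rat hearts lay between, from 2233 to 12598, and overlapped the guinea pig through Damaraland replicate 5. Neither gene was called between the mole-rats and the outgroups (Col3a1 -0.68 ± 0.37 SE and Col1a2 -0.07 ± 0.34 SE, limma adjusted p = 0.113 and 0.866).

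**Figure D2:**
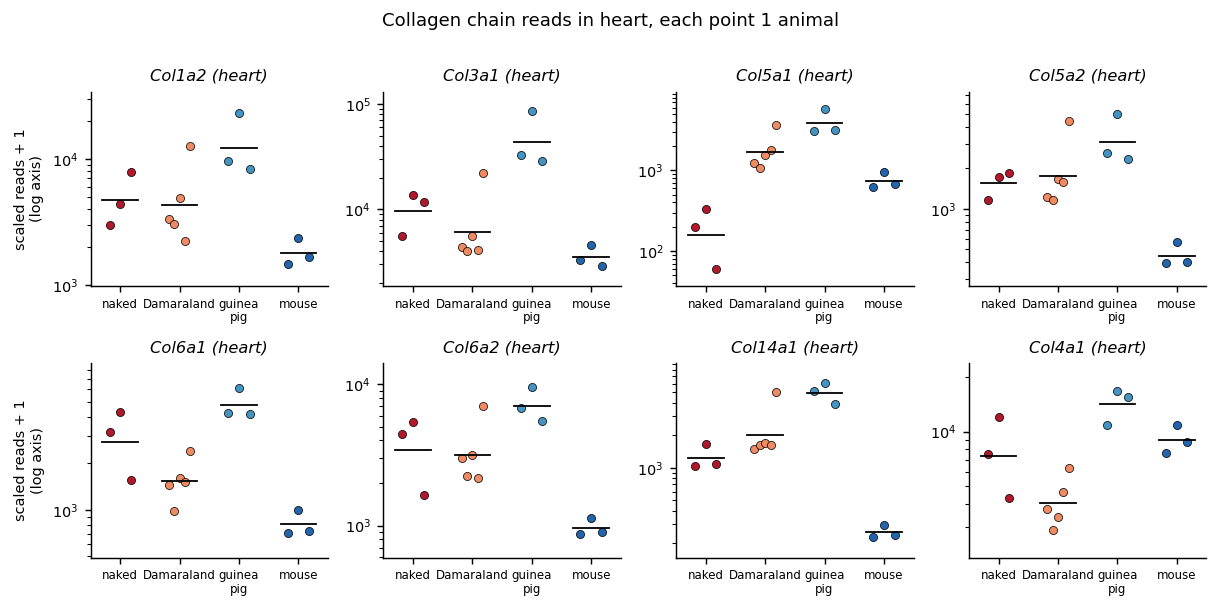
Scaled reads plus 1 (log axes, each panel on its own scale) of 8 collagen chains in heart by species; points are animals and bars are means of the logged values. Guinea pig hearts lead at Col3a1 (28856 to 84917), and naked hearts are lowest at Col5a1 (59.3 to 332.1).

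Type V collagen joins type III and type I fibrils at their core and limits their width. Its chains parted company in the naked mole-rat. Col5a1 stood at 196.2, 332.1 and 59.3 scaled reads in naked hearts, against 613.2, 956.2 and 681.8 in mouse, 1061 to 3671 in Damaraland and 3069, 5822 and 3198 in guinea pig. Every naked heart was below every other heart. The naked mean was lower than the Damaraland mean by 2.86 on the log2-like scale (a difference of -2.86 ± 0.37 SE, limma adjusted p = 5.5e-06), and the gene was called against all 3 other species. Its partner Col5a2 stood at 1159, 1716 and 1834 in naked hearts, 1166 to 4464 in Damaraland, 2345 to 4994 in guinea pig and 394.8, 568 and 401.1 in mouse. Naked hearts were below all guinea pig hearts at this gene too, but above all mouse hearts and within the range of Damaraland but for naked replicate 1 (naked against Damaraland -0.19 ± 0.35 SE, limma adjusted p = 0.655). Within a library the ratio of Col5a1 to Col5a2 was 0.0323 to 0.194 in naked hearts, 0.822 to 1.12 in Damaraland, 1.17 to 1.36 in guinea pig and 1.55 to 1.7 in mouse, so naked hearts did not overlap the rest. The pair was chosen for this description after its values were seen, and the ratio has no test.

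Type XI chains, which nucleate fibrils in cartilage and are close relatives of type V, went the other way in naked hearts. Col11a1 stood at 153.1, 324.9 and 318.6 scaled reads in naked hearts, while no other heart exceeded 46.8. Its differences from Damaraland and mouse were 2.02 and 2.63. They are given as a description with no p, since the gene passed the filter on low values only through the naked hearts (mean 8.37 on the log2-like scale, 6.19 over the other hearts, limit 6.36). The mean of both mole-rats differed from that of the outgroups by 1.31, and by 3.12 on log2 recovered reads (voom), but Damaraland hearts, at 9.6 to 46.8, lay among the guinea pig hearts at 10.2 to 38.3. Col11a2 was also highest in naked hearts, at 77.8, 285.4 and 40.7, though replicate 3 lay within the guinea pig range of 35.3 to 44.1. Its difference from Damaraland was 1.15, its call against Damaraland was lost without naked replicate 2, and it too passed the filter only through the naked hearts (6.33 over the other hearts). Col11a1, higher, and Col5a1, lower, were the 2 members called in the naked heart against each other species, beside 4.87% and 4.14% of all genes (9.02% in all), and of the pair Col5a1 passed the filter without the naked hearts too. By voom, whose share of all genes was not counted, there were 4. Without the shallow naked replicate 3 there were 4, with Col11a2 and Col4a5 added.

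Of the 4 type VI microfibril chains, Col6a1, Col6a2 and Col6a3 had their highest mean in guinea pig and their lowest in mouse heart, and guinea pig exceeded mouse by 2.45 ± 0.32, 2.77 ± 0.42 and 2.51 ± 0.35 SE (limma adjusted p = 5.74e-06, 2.47e-05 and 1.05e-05). Col6a2 gave 6731, 9588 and 5448 scaled reads in guinea pig, 871.3, 1135 and 901.6 in mouse, 4449, 5396 and 1637 in naked and 2156 to 7057 in Damaraland hearts. Every mouse heart was below every other heart, and the guinea pig range met the mole-rat ranges at Damaraland replicate 5. Col6a6 stood at 84.6 to 564.3 in naked, 116.6 to 379.3 in Damaraland, 186.1 to 464.6 in guinea pig and 91.4 to 123.7 in mouse. Its guinea pig to mouse call (1.26 ± 0.41 SE, limma adjusted p = 0.0146) was lost without guinea pig replicate 1 or replicate 2.

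Collagens XII and XIV sit on the surface of fibrils and link them to their surroundings. Col14a1 showed the widest outgroup difference of the tested chains in heart on the log2-like scale, which compresses scarce genes (as a fold it was 19.7, below the 23.7 of Col12a1 and the 26.3 of Col7a1), with 5142, 6034 and 3846 scaled reads in guinea pig and 225.6, 297.2 and 238.2 in mouse (3.93 ± 0.34 SE, limma adjusted p = 5.95e-08). Naked hearts held 1043, 1660 and 1089, and Damaraland hearts 1496, 1631, 1682, 1620 and 4975. The guinea pig hearts overlapped the others only through Damaraland replicate 5, and every mouse heart was below every other heart. Col12a1 was lowest in mouse, at 8.6, 17.1 and 13.6, against 456.6 to 659.6 in naked, 182.0 to 409.0 in Damaraland and 271.0 to 354.2 in guinea pig. The mole-rat average exceeded that of the outgroups by 1.47 ± 0.14 SE (limma adjusted p = 1.09e-07; 2.56 by voom). The guinea pig, however, lay inside the Damaraland range, and Damaraland was not called against it (-0.22 ± 0.19 SE, limma adjusted p = 0.328).

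The mouse heart stood apart at several chains. In it 7 members were called against each other species, beside 10.4% of all genes: Col12a1, Col14a1, Col1a2, Col5a2, Col6a2 and Col8a2 lower (3.80% of all genes), and Col4a5 higher (6.60%). The Col1a2 call was lost without mouse replicate 1 or 3, naked replicate 2 or 3 or Damaraland replicate 5, and the Col4a5 call without guinea pig replicate 3. Col8a2, a short-chain network collagen, had 4.6, 10.1 and 8.8 scaled reads in mouse and at least 42.8 in every other heart. The guinea pig had 7 of its own as well, beside 6.61% of all genes: Col14a1, Col1a2, Col3a1, Col5a1, Col6a2 and Col6a3 higher (3.99% of all genes) and Plod2 lower (2.62%). Without guinea pig replicate 2, whose collagen share was the highest, 4 remained, the lost members being Col1a2, Col5a1 and Col6a2. Col1a2 was also lost without naked replicate 1 or 2, and Col6a2 without guinea pig replicate 1, naked replicate 3 or Damaraland replicate 4. Fibroblast markers (6 of 7 listed genes have a row, none at 0 in all hearts) were also higher in guinea pig than in mouse: they summed to 42875 to 54589 scaled reads in guinea pig, 9487 to 12034 in mouse, 14978 to 18573 in naked and 20204 to 74296 in Damaraland hearts. Most of each sum was Gsn, with means of 35033 in guinea pig, 6550 in mouse, 13517 in naked and 28931 in Damaraland hearts. Naked hearts had lower means than mouse hearts at Dcn (1534 against 2332), Lum (162 against 464) and Dpt (140 against 769). They had higher means than mouse hearts at Gsn, Pdgfra and Tcf21. The part of these markers in the collagen differences was not tested.

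Basement membrane chains split by gene. Col4a5, which pairs with Col4a6 or with other type IV chains, was scarce in mole-rat hearts: 10.1, 7.8 and 63.0 scaled reads in naked and 51.5, 34.5, 32.2, 95.0 and 226.3 in Damaraland, against 422.4, 657.1 and 299.6 in guinea pig and 1117, 1362 and 953.8 in mouse. The mole-rat and outgroup hearts did not overlap. The difference was -2.87 ± 0.25 SE (limma adjusted p = 4.29e-08; -4.71 by voom). Of the 32 members, 5 had mole-rat libraries that did not overlap the outgroup libraries, beside 15.2% of all genes: Col4a5, Loxl1 and P4ha1 below (7.59% of all genes), P4ha2 and Plod3 above (7.57%). Its neighbour Col4a6 followed another order, with 109.8, 241.5 and 67.8 in guinea pig, 65.1, 85.0 and 166.7 in naked, and no more than 54.6 in Damaraland or mouse hearts. It was called between naked and Damaraland at 1.0 ± 0.26 SE (limma adjusted p = 0.00284), a call lost without naked replicate 3 or any of Damaraland replicates 1, 2 and 3.

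Col4a1, the ubiquitous chain of basement membranes, stood at 10920 to 16755 scaled reads in guinea pig, 7666 to 10889 in mouse, 4330 to 12080 in naked and 2874 to 6308 in Damaraland hearts. Its mole-rat difference of -1.04 ± 0.22 SE (limma adjusted p = 0.000492) lay at the size threshold, and it fell short of it at -0.86 without naked replicate 3 and at -0.98 without guinea pig replicate 2, Damaraland replicate 2 or mouse replicate 2. Endothelial markers, all 6 with a row and none at 0 in all hearts, summed to 12234 to 16501 in guinea pig, 10221 to 12794 in mouse, 7662 to 10101 in naked and 7613 to 9033 in Damaraland hearts. The genes of the list did not all go 1 way. The mole-rat difference was -0.74 at Pecam1, -0.87 at Cdh5, -0.98 at Kdr, -0.33 at Tie1, 0.07 at Tek and 1.46 at Egfl7. The part of these markers in the Col4a1 values was not tested.

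The Damaraland heart was highest in the collagens of the basement membrane zone. Col15a1, a chain of muscle and vessel basement membranes, stood at 3641, 3256, 3838, 3100 and 9436 scaled reads in Damaraland, against 795.7, 1696 and 1897 in naked, 2042 to 2663 in guinea pig and 1187 to 1828 in mouse hearts. Every Damaraland heart exceeded every other heart. It was called against naked (naked minus Damaraland -1.56 ± 0.32 SE, limma adjusted p = 0.000478) and against mouse, but against guinea pig the difference of 0.86 ± 0.32 SE (limma adjusted p = 0.0287) was under the size threshold. Col18a1, source of the fragment endostatin, was also highest there at 611.5 to 1467, with 148.2 to 591.9 in naked, 247.5 to 521.4 in guinea pig and 189.8 to 238.1 in mouse hearts. Its call against naked (naked minus Damaraland -1.07 ± 0.32 SE, limma adjusted p = 0.00795) was lost without Damaraland replicate 5 or naked replicate 3. No member was called in the Damaraland heart against each other species by limma, where 6.76% of all genes were (3.86% higher and 2.90% lower). The share of all genes was not counted at other settings. At an unadjusted p under 0.05 and the same size there were 0 such members, at any size 5, and by voom 1. Col18a1 joined that set without guinea pig replicate 1 or 2 or Damaraland replicate 1, 2 or 4, and Loxl1 and Col4a1 joined it without Damaraland replicate 5 or naked replicate 3. Col8a1, a chain of vessel wall networks, was lower in naked hearts (232.2 to 459.3) than in Damaraland (410.4 to 1482; -1.43 ± 0.36 SE, limma adjusted p = 0.00261), with guinea pig at 603.0 to 1738 and mouse at 223.6 to 431.0. Its guinea pig to mouse call (1.34 ± 0.40 SE, limma adjusted p = 0.00898) was lost without guinea pig replicate 2.

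The remaining chains of the heart were scarce. Col16a1, another fibril-associated chain, was listed at 0 in guinea pig replicates 1 and 2 and Damaraland replicates 1 and 2, with 28.4 scaled reads in guinea pig replicate 3, up to 266.9 in Damaraland replicate 5, 64.3 to 141.4 in naked and 71.4 to 99.6 in mouse. Its guinea pig to mouse call (-1.53 ± 0.59 SE, limma adjusted p = 0.0346) was lost when guinea pig replicate 1 or 2 or any mouse heart was left out. Between the mole-rats 9 members were called (14 by voom, its share of all genes not counted), beside 29.4% of all genes by limma: Col11a1, Col11a2 and Col4a6 higher in naked (14.2% of all genes), and Col15a1, Col18a1, Col28a1, Col5a1, Col8a1 and Plod1 lower (15.2%). Over single left-out libraries this count ran from 7 to 12, and without both Damaraland replicate 5 and naked replicate 3 it lost Col4a6 and Col18a1 and gained Col12a1, Col4a1, Col6a1 and Loxl1. Col28a1, a minor chain, stood at 33.8 to 103.7 in naked, 83.1 to 394.9 in Damaraland, 98.1 to 129.3 in guinea pig and 3.3 to 18.4 in mouse hearts, and its call between the mole-rats (-1.12 ± 0.29 SE, limma adjusted p = 0.00278) was lost without Damaraland replicate 5, naked replicate 1 or naked replicate 2. Col7a1, the anchoring fibril chain, was at 188.1 in Damaraland replicate 4 and at no more than 44.8 in any other heart. Col20a1 stayed between 4.8 and 38.1 and was called in no contrast.

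Of the prolyl hydroxylase subunits, P4ha1 was lower and P4ha2 higher in mole-rat hearts than in outgroup hearts. P4ha1, the widely expressed catalytic subunit, stood at 120.9, 133.0 and 196.3 scaled reads in naked and 130.1, 62.7, 103.8, 70.3 and 121.8 in Damaraland hearts, against 437.3, 493 and 439.9 in guinea pig and 719.3, 971.0 and 1010 in mouse. All 8 mole-rat hearts were below all 6 outgroup hearts (-1.90 ± 0.13 SE, limma adjusted p = 2.55e-09), and both mole-rats were called against both outgroups. P4ha2, the alternative catalytic subunit, was opposite: 2317, 2390 and 2497 in naked and 1299, 1508, 2028, 1272 and 2101 in Damaraland hearts, against 707.0, 884.1 and 968.9 in guinea pig and 625.1, 666.8 and 757.2 in mouse. Again no mole-rat heart overlapped an outgroup heart (1.28 ± 0.13 SE, limma adjusted p = 2.8e-07). Damaraland against guinea pig fell under the size threshold at 0.86 ± 0.18 SE (limma adjusted p = 0.000471). Within a library, P4ha2 outnumbered P4ha1 12.7-fold to 19.2-fold in naked and 9.99-fold to 24-fold in Damaraland hearts, 1.62-fold to 2.2-fold in guinea pig, and was at 0.687 to 0.869 of it in mouse. The ratio, chosen after its values were seen, compares reads not corrected for length, so only its shift between species is described.

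**Figure D3:**
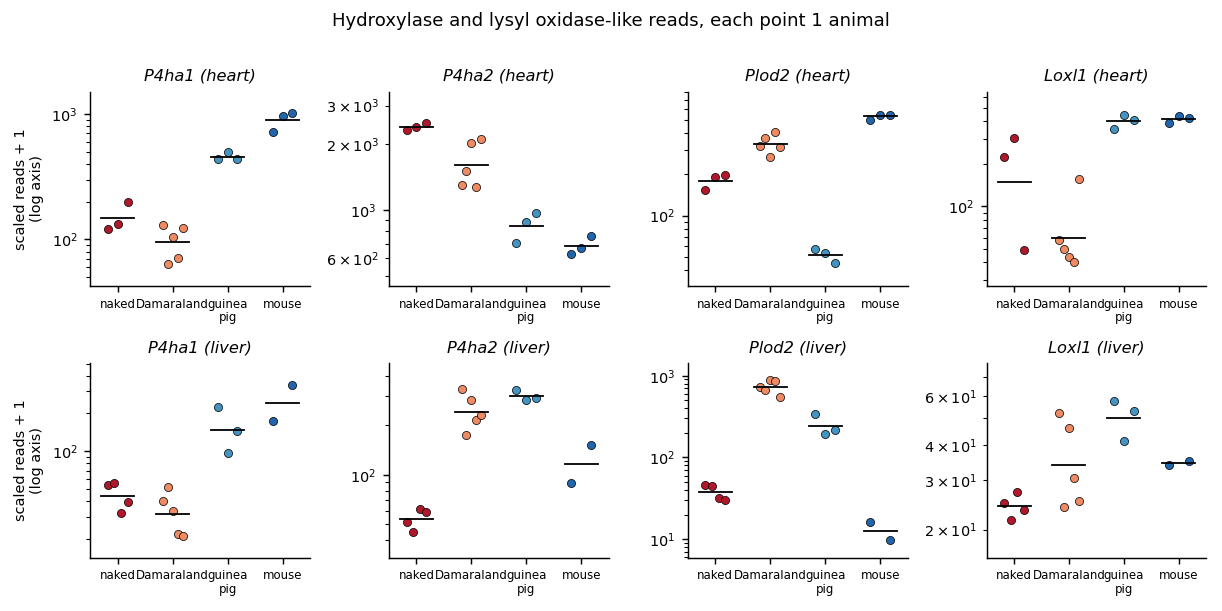
Scaled reads plus 1 (log axes, each panel on its own scale) of P4ha1, P4ha2, Plod2 and Loxl1 in heart (top) and liver (bottom) by species; points are animals and bars are means of the logged values. P4ha1 is lower in every mole-rat library than in any outgroup library of the same tissue, and P4ha2 is higher in mole-rats in heart but not in liver.

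Among the crosslinking oxidases, Loxl1, which acts on elastin as well as collagen, was low in mole-rat hearts at 223.2, 301.6 and 48.2 scaled reads in naked and 56.7, 48.6, 42.5, 38.9 and 154.5 in Damaraland, against 349.6, 443.2 and 409.9 in guinea pig and 388.9, 437.3 and 420.3 in mouse. The groups did not overlap (-1.47 ± 0.23 SE, limma adjusted p = 3.13e-05). Both mole-rats were called against both outgroups, the naked mole-rat by -1.02 and -1.06, close to the size threshold. Without naked replicate 3, or without guinea pig replicate 2, Loxl1 was no longer called in both. Loxl2, which modifies type IV collagen, was at 145.8 to 652.5 in Damaraland, 254.5 to 435.2 in naked, 330.5 to 552.4 in mouse and 580.3 to 754.5 in guinea pig hearts (average difference -0.73 ± 0.23 SE, limma adjusted p = 0.00923, under the size threshold). Loxl3 stayed between 29.0 and 133.4 and was called in no contrast. Loxl4 ran from 15.2 to 169.1 and was called between guinea pig and mouse (1.25 ± 0.20 SE, limma adjusted p = 5.04e-05). Lox itself did not pass the filter, with no heart above 70.7 and no liver above 9.4.

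Lysyl hydroxylases had a different order. Plod2, which hydroxylates the telopeptide lysines used in stable crosslinks, was lowest in guinea pig hearts at 55.9, 52.1 and 44.1 scaled reads and highest in mouse at 500.3, 544.6 and 546.3, with 153.9, 190.0 and 196.3 in naked and 267.5 to 404.7 in Damaraland. None of the 4 species overlapped another. The guinea pig was lower than the mouse by 2.36 on that scale (-2.36 ± 0.15 SE, limma adjusted p = 1.54e-09). Plod1 was lower in naked (1281 to 1603) than in Damaraland hearts (2602 to 5109; -1.28 ± 0.19 SE, limma adjusted p = 1.76e-05). Plod3, which also adds sugars to collagen, was higher in mole-rats without overlap, at 770.5 to 1044 in naked and 595.6 to 783.6 in Damaraland against 360.7 to 474.6 in guinea pig and 358.7 to 446.6 in mouse. The difference of 0.88 ± 0.11 SE (limma adjusted p = 2.71e-06) was under the size threshold, and it passed at 1.02 by voom.

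In liver 29 members passed the filter, 27 of them also in heart. Between mole-rats and outgroups 8 were called, beside 28.1% of all genes: Col16a1, Col2a1 and Plod2 higher (15.1% of all genes) and Col14a1, Col15a1, Col24a1, Col5a1 and P4ha1 lower (13.0%). The median difference of the 29 members was -0.18, beside 0.02 for all genes. Col14a1 and P4ha1 were the 2 members lower in both mole-rats against each outgroup, where 2.87% of all genes were lower, 3.42% higher and 6.29% either, and also the 2 with no overlap between mole-rat and outgroup livers, both below, beside 7.37% of all genes below, 8.74% above and 16.1% in all. Between guinea pig and mouse 15 were called, beside 37.2% of all genes, 12 of them higher in guinea pig against 18.8% and 3 lower against 18.4%. Between the mole-rats 13 were called, beside 34.2%: Col12a1, Col1a2, Col2a1 and Col6a3 higher in naked (16.6%) and Col16a1, Col18a1, Col4a5, Col5a1, Col5a2, Col6a6, Loxl4, P4ha2 and Plod2 lower (17.6%). By mean scaled reads the guinea pig was highest at 15 of 29 members and the naked mole-rat lowest at 12. By mean deposited value, an unlike measure, the guinea pig was highest at 24.2% of all genes and the naked mole-rat lowest at 25%. In liver 4 members passed the filter only through the species where they were highest: Col2a1 (naked), Col11a1 and Col24a1 (guinea pig) and Col8a2 (Damaraland). Without them the counts were 6 of 25 between mole-rats and outgroups, 13 between guinea pig and mouse and 12 between the mole-rats.

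**Figure D4:**
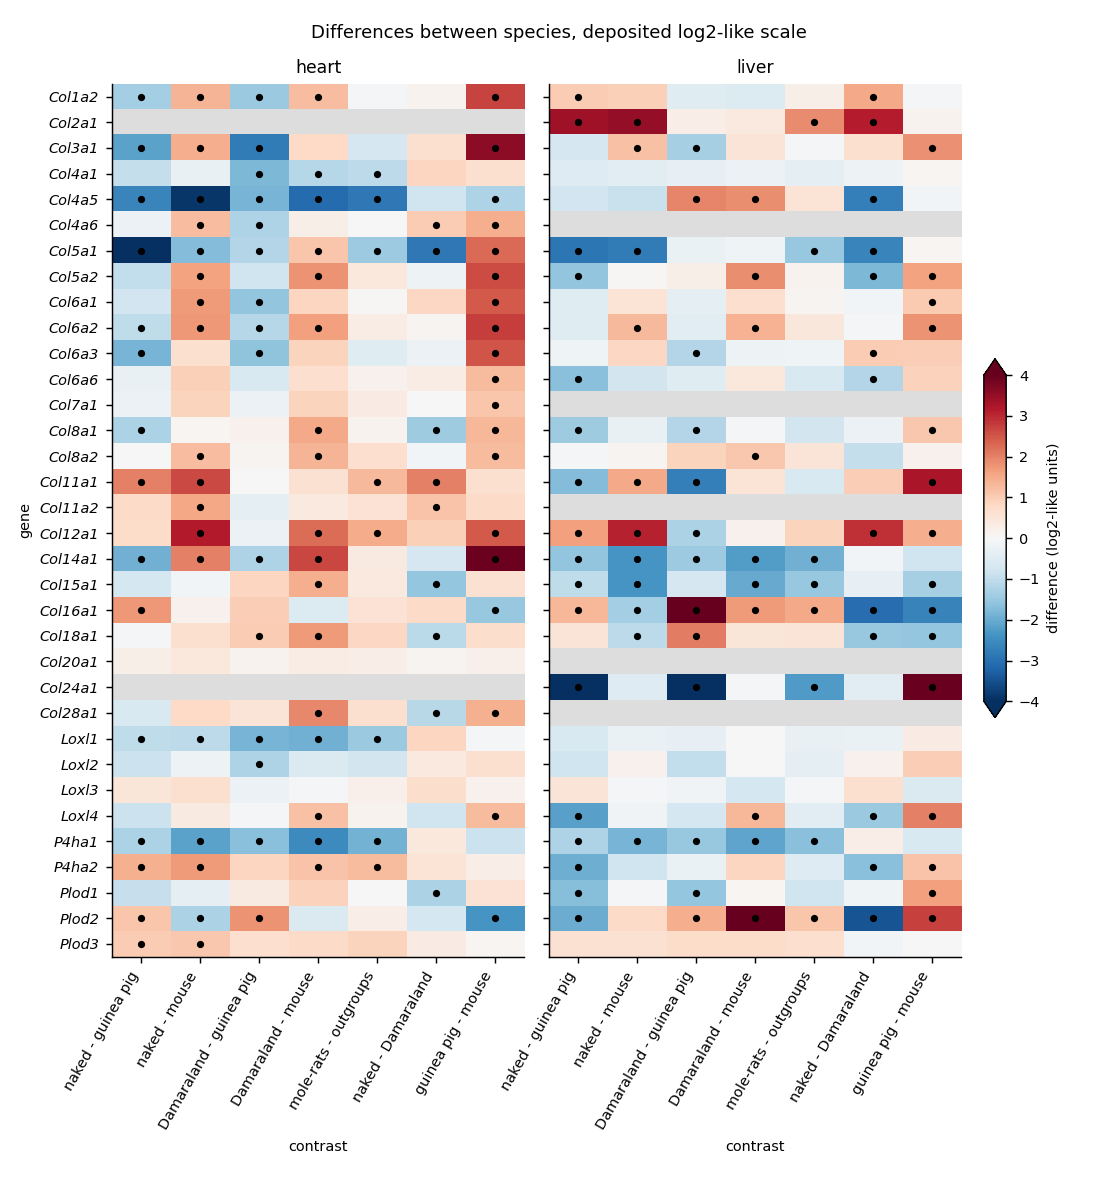
Differences between species on the deposited log2-like scale (colour, red higher and blue lower in the species named first, colour scale ending at 4 in each direction) for each member and 7 contrasts in heart and liver; dots mark calls and grey rows did not pass the filter. The guinea pig to mouse column of heart holds 16 higher calls. The column of both mole-rats against both outgroups, a contrast of species averages, holds 8 calls in each tissue.

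Col18a1 had more reads than any other member chain in every liver. Without it the median chain sum fell from 0.275% to 0.0463% in Damaraland and from 0.221% to 0.0534% in mouse livers. In naked livers it fell from 0.127% to 0.057%, and in guinea pig livers from 0.169% to 0.107%. Col18a1 reached 21879 to 36664 scaled reads in Damaraland (median 33984), 22370 and 20039 in mouse, 10357, 10653, 9771 and 10484 in naked and 8197, 6583 and 6754 in guinea pig livers. Only Damaraland and mouse overlapped. Naked livers were below Damaraland by 1.52 (-1.52 ± 0.18 SE, limma adjusted p = 1.02e-06), and guinea pig below mouse by 1.56 (-1.56 ± 0.25 SE, limma adjusted p = 3.76e-05). The order of the outgroups was the reverse of that in heart, where all guinea pig values exceeded all mouse values. Col15a1, its relative, was scarce at 8.5 to 110.7 in every liver but the mouse's, with 189.9 and 264.6. It was called in the mouse against each other species, where 6.33% of all genes were higher, and Col6a2 was lower there, as were 5.83%. These were the 2 such members, beside 12.2% of all genes. Mole-rats were lower than outgroups at Col15a1 by 1.51 (-1.51 ± 0.20 SE, limma adjusted p = 2.92e-06; -2.33 by voom).

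The naked liver repeated the low Col5a1 of the naked heart. It had 24.8, 42.8, 21.2 and 31.3 scaled reads, against 308.1 to 418.8 in Damaraland, 454.6, 468.4 and 360.0 in guinea pig and 392.8 and 403.7 in mouse. Every naked liver was below every other liver, and the contrast with Damaraland was -2.64 ± 0.14 SE (limma adjusted p = 4.87e-11). Col5a2 was low there too, at 146.1, 199.0, 116.0 and 179.6, but shared that level with the mouse (126.2 and 179.0), while Damaraland stood at 565.6 to 784.1 and guinea pig at 475.2 to 598.0. The ratio of Col5a1 to Col5a2 was 0.17 to 0.215 in naked livers, 0.533 to 0.568 in Damaraland, 0.757 to 0.842 in guinea pig and 2.26 to 3.11 in mouse. As in heart, naked livers did not overlap the other species in it.

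Against that low Col5a1, the naked liver held a gene otherwise at the limit of detection. Col2a1, the main fibrillar chain of cartilage, gave 166.9, 152.0, 211.7 and 232.7 scaled reads in naked livers. No Damaraland liver exceeded 2.2, guinea pig livers gave 0, 1.7 and 0, and both mouse livers 0. The naked mean of 191 was 123-fold that of Damaraland and at least 142-fold higher than in mouse, taking 3 reads over the group as the limit for a count of 0. These values have no p, since the gene passed the filter only through the naked livers (mean 7.82 on the log2-like scale, 4.53 over the other livers, limit 5.29). Damaraland was called against neither outgroup. Of the cartilage markers, Acan was at 0 in all naked livers and Comp at no more than 2.91. In naked hearts Col2a1 gave 11, 3.2 and 3.7, beside 0.8 to 10.0 in mouse hearts, and did not pass the filter. Col12a1 was likewise highest in naked livers, at 1300, 526.4, 1230 and 728.6 against 65.3 to 112.6 in Damaraland, 168.8 to 368.6 in guinea pig and 100.3 and 52.9 in mouse (naked against Damaraland 2.92 ± 0.25 SE, limma adjusted p = 2.02e-08). Col12a1, Col2a1 and Col5a1 were the 3 members called in naked liver against each other species, the former 2 higher and Col5a1 lower, beside 5.83% and 4.45% of all genes (10.3% in all). Without Col2a1 there were 2. By voom, with it, there were 6, and the share of all genes that voom called was not counted. Bile duct markers (4 of 5 listed genes have a row, none at 0 in all livers) summed to 2138 to 2980 in naked livers against 119 to 2048 in the others, but most of the naked sum was Epcam, at 1883 to 2707. Krt19 was at 185 to 264 in naked and 732 to 1963 in guinea pig livers, Krt7 at 0.727 to 5.53 and 33 to 76.2, and Spp1 at 2.54 to 11.1 in naked, 27.9 to 104 in Damaraland and 345 to 616 in mouse. Mesothelial markers, all 4 with a row, summed to 124 to 351 against 4.96 to 86. Msln, Upk3b and Lrrn4 had their highest mean in naked livers, while Wt1 stayed at no more than 4.72 in every liver. The part of the bile duct and mesothelial markers in the Col2a1 and Col12a1 values was not tested.

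**Figure D5:**
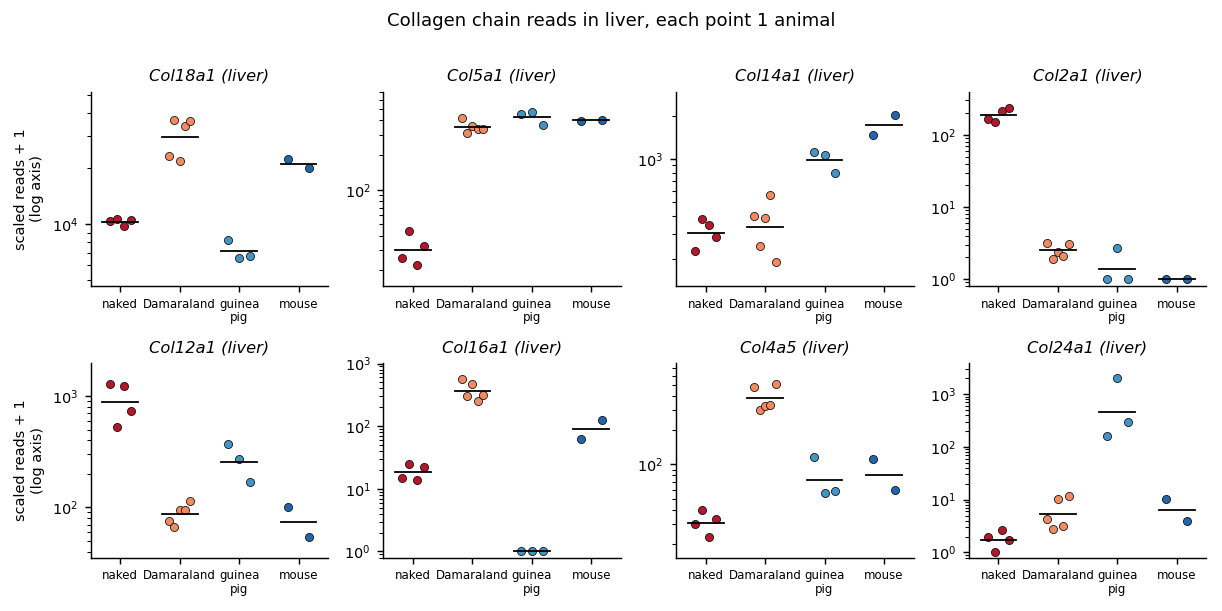
Scaled reads plus 1 (log axes, each panel on its own scale) of 8 collagen chains in liver by species; points are animals and bars are means of the logged values. Col2a1 stands at 152.0 to 232.7 in naked livers and at 2.2 or less elsewhere, and Col16a1 is at 0 in all guinea pig livers.

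Damaraland livers had 3 members called against each other species, all higher, beside 5.51% of all genes (3.30% were lower and 8.81% either): Col16a1, Col4a5 and Plod2. Col16a1 ran from 255.7 to 565.8 scaled reads in Damaraland, against 61.3 and 124.7 in mouse, 12.7 to 23.5 in naked and 0 in every guinea pig liver. The Damaraland mean was 21.4-fold the naked mean and at least 522-fold higher than in guinea pig, with the same limit of 3 reads over the group. The naked to Damaraland contrast was -3.05 ± 0.21 SE (limma adjusted p = 9.98e-10). The average contrast of 1.5 ± 0.18 SE (limma adjusted p = 8.81e-07; 3.77 by voom) joined opposite outgroups, and naked livers were lower than mouse livers. Col4a5, so scarce in mole-rat hearts, was highest in Damaraland livers at 300.8 to 509.9, with 22.0 to 38.7 in naked, 55.4 to 114.0 in guinea pig and 109.7 and 58 in mouse (naked against Damaraland -2.73 ± 0.20 SE, limma adjusted p = 2.68e-09). Plod2 stood at 542.8 to 872.8 in Damaraland, 190.0 to 337.1 in guinea pig, 29.1 to 44.7 in naked and 15.3 and 8.7 in mouse livers, with no overlap among the 4 species. Damaraland exceeded mouse 61-fold (4.19 ± 0.22 SE, limma adjusted p = 5.12e-11), and guinea pig exceeded mouse 20.5-fold, the opposite of their order in heart.

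Guinea pig livers had 5 such members, beside 9.38% of all genes: Col11a1, Col24a1, Col8a1 and Plod1 higher (5.10%) and Col16a1 lower (4.28%). Col24a1, a minor fibrillar chain, gave 160.2, 2023 and 299.6 scaled reads, while no other liver exceeded 10.6. Its difference from mouse was 3.95 and that of the mole-rat average -2.26, given with no p, since it passed the filter only through the guinea pig livers (mean 9.01, against 4.84 over the other livers). Neither mole-rat was called against mouse. Col11a1 gave 55.2, 466 and 111.9, against 16.9 to 32.0 in naked, 1.1 to 7.4 in Damaraland and 0 in both mouse livers, and it too passed only through the guinea pig (7.56, against 5.09 over the others). Without both genes 3 of the 5 were left. P4ha3, another prolyl hydroxylase subunit, did not pass the filter, although it stood at 93.7, 640.3 and 194.6 in guinea pig livers against no more than 2.8 in any other liver. In these 3 genes guinea pig replicate 2 was the highest. Guinea pig livers also held the cartilage marker Acan at 20.3 to 58, where all other livers were at 0, and Comp at 23.1 to 28.9, where no other liver exceeded 4.25. The third cartilage marker with a row, of 4 listed, was Chad, at 16.8 to 127 in guinea pig and 9.47 to 171 in Damaraland, so the sums of 63 to 196 and 10.5 to 175 overlapped; the sums in naked and mouse livers were 0.994 to 13. Their part was not tested. Plod1 was more even, at 3673, 3611 and 4294 in guinea pig and 1015 to 1475 in all other livers (guinea pig against mouse 1.63 ± 0.19 SE, limma adjusted p = 1.38e-06). Col8a1 stood at 45.4 to 91.6 against no more than 30.4, and its guinea pig to mouse call (1.09 ± 0.30 SE, limma adjusted p = 0.00513) was lost without guinea pig replicate 1 or mouse replicate 2.

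Among the common fibrillar and microfibrillar chains of the liver, Col3a1 reached 6287, 4625 and 3891 scaled reads in guinea pig, 1599 to 4420 in naked, 1093 to 3481 in Damaraland and 1166 and 1494 in mouse livers (guinea pig against mouse 1.84 ± 0.41 SE, limma adjusted p = 0.000937). Col1a2 was highest in naked livers at 963.8 to 1736, against 172.1 to 923.3 in Damaraland, 406.7 to 893.1 in guinea pig and 657.1 and 658.9 in mouse, so every naked liver exceeded every other (1.5 ± 0.33 SE against Damaraland, limma adjusted p = 0.000749; against mouse 0.94 ± 0.43 SE, limma adjusted p = 0.0661). Col4a1 was called in no contrast, with 630.1 to 1629 over all livers. Col6a1 and Col6a2 were higher in guinea pig than in mouse (1.04 ± 0.21 and 1.79 ± 0.27 SE, limma adjusted p = 0.000406 and 1.97e-05), though the Col6a1 call was lost without guinea pig replicate 1 or mouse replicate 1. Col6a3 was higher in naked than Damaraland livers by 1.01 ± 0.23 SE (limma adjusted p = 0.000777), a call lost without naked replicate 4 or Damaraland replicate 2, 4 or 5. Col6a6 had 2.2 to 10.9 scaled reads in 3 naked livers, 0 in the other and 13.0 to 125.9 elsewhere, and its call between the mole-rats (-1.17 ± 0.31 SE, limma adjusted p = 0.00273) was lost without naked replicate 3 or Damaraland replicate 4. Col8a2 was at 27.2 to 43.4 in Damaraland and at no more than 12.4 in the other livers (Damaraland against mouse 1.07, with no p since it passed the filter only through Damaraland livers). Fibroblast markers summed to 3100 to 5667 in guinea pig livers and to 832 to 1958 in all others, and stellate cell markers, all 7 with a row, to 5488 to 7051 in guinea pig, 6125 to 9661 in naked, 4461 to 6062 in Damaraland and 3637 to 3684 in mouse. Of the fibroblast genes, Dcn, Lum, Dpt and Gsn had their highest mean in guinea pig livers. Pdgfra and Tcf21 had theirs in naked livers, at 702 and 86.9 against 538 and 82.2 in guinea pig. Reln was the largest part of each stellate sum. Lrat had a mean of 148 in Damaraland livers against 585 to 1064 in the other species. The part of these markers in the chain values was not tested.

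Col14a1 and P4ha1 separated the mole-rat livers from the outgroup livers. Col14a1 gave 226.6, 380.0, 348.1 and 284.3 scaled reads in naked and 397.6, 245.6, 388.5, 558.7 and 190.1 in Damaraland, against 1110, 1070 and 791.1 in guinea pig and 1474 and 2006 in mouse (-1.91 ± 0.20 SE, limma adjusted p = 2.28e-07). In heart the mouse had been the lowest species for this gene, and here it was the highest. P4ha1 repeated its heart pattern, at 31.3 to 55.3 in naked and 20.2 to 50.6 in Damaraland against 225.2, 95.8 and 144.4 in guinea pig and 173.4 and 336.3 in mouse (-1.68 ± 0.19 SE, limma adjusted p = 4.98e-07). Without guinea pig replicate 1 it was no longer called in both mole-rats. P4ha2 did not repeat its heart pattern: naked livers were the lowest, at 50.7, 44.2, 61.0 and 58.9, against 173.8 to 330.8 in Damaraland, 284.2 to 325.2 in guinea pig and 88.5 and 150.0 in mouse (naked against Damaraland -1.66 ± 0.17 SE, limma adjusted p = 1.72e-07). Its guinea pig to mouse call (1.14 ± 0.23 SE, limma adjusted p = 0.000437) was lost without mouse replicate 1. The ratio of P4ha2 to P4ha1 was 3.44 to 11.4 in Damaraland livers, 1.44 to 2.97 in guinea pig, 0.8 to 1.95 in naked and 0.446 to 0.51 in mouse. Heart and liver values were transformed separately, so levels are not compared between tissues.

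Among the other enzymes of the liver, Plod3 stood at 383.4 to 1149 with a mole-rat difference of 0.67 ± 0.15 SE (limma adjusted p = 0.00107), under the size threshold. Loxl1 stood at 20.7 to 56.6 and was called in no contrast. Loxl2 was at 229.1 to 299.1 scaled reads in guinea pig livers and at no more than 201.6 in any other, a difference of -0.97 ± 0.24 SE between Damaraland and guinea pig (limma adjusted p = 0.00213) that was under the size threshold and passed at -1.20 by voom. Loxl3 was at 35.6 to 44.2 in naked and mouse livers and 11.7 to 22.3 in the other two species. Its difference between naked and Damaraland was 0.64 ± 0.13 SE (limma adjusted p = 0.000434), also under the size threshold, and 1.29 by voom. Loxl4 was called, at 168.5, 307.3 and 204.7 in guinea pig and 69.1 to 273.0 in Damaraland against 18.9 to 27.6 in naked and 34.2 and 26.1 in mouse (guinea pig against mouse 2.03 ± 0.33 SE, limma adjusted p = 5.48e-05).

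Members that did not pass the filter on low values were, in heart, Col17a1, Col19a1, Col22a1, Col24a1, Col25a1, Col26a1, Col2a1, Col9a3, Lox and P4ha3, and, in liver, Col11a2, Col17a1, Col19a1, Col20a1, Col22a1, Col25a1, Col26a1, Col28a1, Col4a6, Col7a1, Col9a3, Lox and P4ha3. The filter acts on the mean of all libraries, so a member high in a single species can fail it: Col22a1 had 140.7 and 99.6 scaled reads in mouse heart replicates 1 and 2 but 4.8 in replicate 3, Col25a1 had 48.2 to 94.0 in naked hearts against no more than 8.6 elsewhere, and Col19a1 had 55.0 to 96.3 in naked hearts against no more than 17.2. These 3 were singled out after their values were seen.

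Genes that fold, trim, arrange and break down collagen gave the surroundings of these members. Of 16 folding and secretion genes, 12 were tested in each tissue and none was called by limma between mole-rats and outgroups, where 23.4% of all heart genes and 28.1% of all liver genes were. At an unadjusted p under 0.05 with any size there were 6 in heart and 8 in liver, and voom called 1 and 0. The shares of all genes were not counted at these settings. Serpinh1, the collagen chaperone HSP47, was at 2255 to 4948 scaled reads in all hearts (-0.26 ± 0.14 SE, limma adjusted p = 0.117). Of 20 genes of propeptide removal and fibril assembly tested in heart, 3 were higher and 5 lower in mole-rats, beside 10.8% and 12.6% of all genes. Pcolce2, which enhances procollagen trimming, was the member of that list called lower in both mole-rats. It stood at 0 to 7.41 in naked and 2.62 to 20.3 in Damaraland against 103 to 141 in guinea pig and 165 to 243 in mouse hearts. Its difference of -2.13 is given with no p, since the gene passed the filter only through the mouse hearts. In liver its average difference was 1.29, in the other direction, with Damaraland livers at 351 to 764, while naked livers were at 0, guinea pig livers at 0 to 0.699 and mouse livers at 22.4 to 91.3. Its relative Pcolce was at 152 to 176 in naked, 313 to 560 in Damaraland, 737 to 1026 in guinea pig and 462 to 591 in mouse hearts (-1.14 ± 0.14 SE, limma adjusted p = 1.46e-06). Bmp1, the trimming protease, was at 0.81 ± 0.19 SE (limma adjusted p = 0.00118) and Sparc, a collagen-binding protein, at -0.25 ± 0.16 SE (limma adjusted p = 0.188) in heart.

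In liver 4 of 18 genes of that list were higher and 3 lower in mole-rats, beside 15.1% and 13.0% of all genes. Dcn, the proteoglycan that coats fibrils, was at 77.9 to 179 in naked and 35.1 to 65.2 in Damaraland against 1144 to 2318 in guinea pig and 692 to 1136 in mouse livers (-3.50 ± 0.20 SE, limma adjusted p = 9.84e-11). Its heart difference was -0.44 ± 0.21 SE (limma adjusted p = 0.0736). Postn, which helps crosslinking, was the opposite in liver at 866 to 2049 over both mole-rats and 122 to 310 over both outgroups (2.77 ± 0.16 SE, limma adjusted p = 1.97e-10). Among breakdown genes, 1 of 12 was higher and 2 lower in mole-rat hearts, with the inhibitor Timp4 lower in both mole-rats (-2.08 ± 0.17 SE, limma adjusted p = 1.74e-08), and 3 of 11 were higher and 1 lower in mole-rat livers, beside the same shares of all genes. There the gelatinase Mmp2 was higher in both (1.74 ± 0.15 SE, limma adjusted p = 1.33e-08) and Mmp19 lower in both (-3.09 ± 0.14 SE, limma adjusted p = 9.64e-12). Of 7 receptor genes tested in liver, the 2 called higher in both mole-rats, as 3.42% of all genes were, were Ddr1 and Mag. Ddr1, a collagen-activated kinase, was at 2.66 ± 0.16 SE (limma adjusted p = 1.64e-10). Mag, better known from myelin, stood at 215 to 892 scaled reads in naked, 6.31 to 72.4 in Damaraland, 0 to 2.03 in guinea pig and 0 to 3.62 in mouse livers. Its difference of 2.84 is given with no p, since it passed the filter only through the naked livers. Of 16 genes of TGF-beta signalling, the main inducer of collagen genes, 1 was higher and 2 lower in mole-rat hearts and 4 higher in mole-rat livers, and of 9 other basement membrane genes 1 was higher in heart and 2 in liver. For these 2 lists too, all genes gave 10.8% higher and 12.6% lower in heart, and 15.1% and 13.0% in liver.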

How the data were processed

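RNA was measured in 28 libraries, 14 per tissue, made from ribosomal RNA-depleted total RNA of flash-frozen heart and liver, per the labels' protocols. Per the submitters' processing notes, cutadapt, Salmon 013.1, DESeq2 and GRCm38 were used. The deposited values are on a log2 scale as a variance-stabilising transform gives it, judged from the values themselves, with 0 reads at 5.3645 in heart and 4.2893 in liver. The transform was inverted, and 100.0% of the deposited log2 values came back as whole reads (largest deviation 1.4e-07). Columns of other series, 15 in the heart and 11 in the liver table, were not used. Of 13928 rows, 13921 were matched to a symbol.

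Differences were tested per tissue with limma 3.58.1 in R 4.3.3 (trended variance) on the deposited values, over the 10667 heart and 10887 liver genes whose mean lay at least 1 above the value of 0 reads. P-values were adjusted by Benjamini-Hochberg over those genes, and a gene was called under 0.05 with a difference of at least 1. "In both mole-rats" means called the same way in each mole-rat against each outgroup. The contrast of both mole-rats against both outgroups weighs species equally. All groups shared one estimate of spread, and the contrasts share samples. The scripts were tested on simulated data.

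The members and gene lists were chosen with earlier results of these data known. Genes were named by family (fibrillar, network, type VI, fibril-associated and enzyme genes) or when called in a mole-rat or single-species set, and other genes of the pathway when called in both mole-rats, with Serpinh1, Bmp1, Pcolce, Sparc and Dcn. Alternatives were the size threshold, the filter, median centring, quantile normalisation, an untrended variance, sample weights, a replicate block, voom on recovered reads and each library left out. Leaving out Damaraland heart replicate 5 and naked heart replicate 3 together was added after seeing the data. Depth limits scarce genes. Replicates were different animals within a tissue.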

Additional observations from a re-analysis of the deposited data

Results flagged for a closer look

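Damaraland heart replicate 5 lay far above the other 4 Damaraland hearts, on the deposited log2-like scale, for Col3a1 at 14.44 (others 11.99 to 12.46), Col14a1 at 12.30 (10.62 to 10.78), Col15a1 at 13.22 (11.64 to 11.94), Col5a2 at 12.15 (10.28 to 10.77), Col8a2 at 8.39 (6.78 to 7.24) and Loxl1 at 7.84 (6.72 to 6.97). Damaraland heart replicate 4 stood apart at Col7a1, with 8.04 against 5.99 to 6.36, and below the others at Col8a1, with 8.93 against 10.19 to 10.61, and at Plod3, with 9.40 against 9.67 to 9.75. These are 9 outlying values among 90 groups of 4 or 5 libraries, and chance alone flags about 1 in 20 groups. All 9 fell among the 32 groups of Damaraland hearts, and the remaining groups were of livers. The genes share their library, so the flags of 1 heart are not independent of each other.

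Of the 27 members that passed the filter in both tissues, 5 had a pair of species fully separated in both, but in opposite directions. This difference was not tested, and the share of all genes with such a pattern was not counted. The mouse livers were only 2. Guinea pig minus mouse was 3.93 in heart and -0.79 in liver for Col14a1, 0.60 and -1.34 for Col15a1, 0.71 and -1.56 for Col18a1, and -2.36 and 2.74 for Plod2. Naked minus Damaraland was 0.56 in heart and -1.66 in liver for P4ha2.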

How the results depend on the processing

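In the contrast of mole-rats against outgroups, no alternative reversed the direction of a called member. For the other contrasts only the counts of called members were compared. Without a size threshold the heart counts rose to 15 between mole-rats and outgroups, 5 in both mole-rats, 17 between the mole-rats, 6 in naked alone, 4 in Damaraland alone and 13 in mouse alone, and the liver counts to 18 between mole-rats and outgroups, 4 in both, 5 in naked alone, 8 in guinea pig alone and 5 in mouse alone. With genes above the table median only, fewer members were tested, and heart gave 5 between mole-rats and outgroups, 1 in both, 5 between the mole-rats, 12 between the outgroups and 1 in naked alone. Liver then gave 3, 1, 7 and 8 in the same order, and 1 each in Damaraland, guinea pig and mouse alone. With no filter, naked heart alone had 4, the added genes being Col19a1 and Col25a1. By voom, heart had 14 between mole-rats and outgroups, 14 between the mole-rats, 4 in naked alone and 1 in Damaraland alone, and liver 6 in naked alone; the cause was not tested. Damaraland heart alone, at 0 as reported, had 1 with median centring, 1 with quantile normalisation, 2 with sample weights and 2 without both Damaraland replicate 5 and naked replicate 3. The share of all genes called was counted at the reported setting only, not for these alternatives.

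Leaving out single libraries gave, in heart, 7 to 8 between mole-rats and outgroups, 2 to 3 in both mole-rats, 7 to 12 between the mole-rats, 16 to 19 between the outgroups, and 2 to 4, 0 to 2, 4 to 8 and 6 to 8 in naked, Damaraland, guinea pig and mouse alone. In liver the ranges were 8 to 9, 1 to 2, 11 to 15 and 13 to 17, then 3 to 4, 3 to 3, 4 to 5 and 2 to 3. For single members in the contrast of mole-rats against outgroups, 735 of the heart values and 633 of the liver values kept their direction and call, 14 and 18 gained a call, and 7 and 1 lost it: the 7 were Col4a1 in heart, between -0.86 and -1.0, and the other was Plod2 in liver, 0.94 with quantile normalisation.

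Replicate numbers were not taken to pair the samples. Same-numbered pairs correlated above 0.1 in 2 of 18 cases in heart and 5 of 16 in liver, and differently numbered pairs in 9 of 54 and 10 of 55. Their median correlations were -0.02 in heart and 0.03 in liver for the same number. With the replicate block Damaraland heart alone had 2 members, and the naked to Damaraland count in heart was 13. Where a species has 2 or 3 libraries, a left-out library leaves the remainder assumed to vary like the other groups. The filter acts on the mean of all libraries, so it also left out members that are high in 1 species.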
